A study of Rattus norvegicus with 18 samples.

Results

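The transcription factors that hold or release the identity of Schwann cells were followed in the proximal stump of the cut rat sciatic nerve. The set comprised 10 genes of the 35371 gene names on the array, matched by name or accession, and all 10 had at least 1 probe. Sox10 and Pou3f1 formed the promyelinating group of 2 genes, and Sox2, Pax3, Id1, Id2, Id3, Id4, Runx2 and Olig1 formed the immature or repair group of 8 genes. Together they were read by 16 probes of 60 bases, of which 15 were bright enough to be tested and 13 probes, of 9 genes, were well above background on all 18 arrays. A further 3 probes whose description, but neither name nor accession, names Runx2 were left out by the rule.

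Adult male Sprague-Dawley rats had 1 cm of the left sciatic nerve removed, and a proximal piece of 0.5 cm was taken at 6 time-points, namely 0, 0.5 and 1 h and also 3, 6 and 9 h after the operation. Each time-point was measured on 3 Agilent arrays of 1 colour, and the sources used here do not tell whether rats were pooled for an array, so the P-values measure the spread between these arrays, which may be technical. The comparison group was the nerve at 0 h, and the labels give it the same anaesthesia and resection as the others. The tissue is whole nerve, and in whole nerve fewer cells of a type and less RNA per cell cannot be told apart.

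Sox10 is the factor that Schwann cells need throughout life, and with Pou3f1, also called Oct6, it switches on Egr2 and the myelin genes. Sox2, Pax3 and the Id proteins mark cells before they myelinate, and the Id proteins lack a DNA binding region and hold basic helix-loop-helix factors away from DNA. Runx2 and Olig1 are known to rise in Schwann cells of injured nerves over days, Runx2 being otherwise the factor of bone formation and Olig1 a factor of oligodendrocytes. The comparison asks whether the first hours already move the balance from the promyelinating to the immature or repair factors.

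The 3 arrays of a time-point correlated with r of 0.976 to 0.992 over all probes. The share of probes well above background was 65.9% to 86.4% on 17 arrays and 93.5% on the array 6 h replicate 1. The scans fell on 3 days. The first held 0 h with 0.5 h, the third held 9 h replicate 3 alone, and the second held everything else. From 1 h on, scan day and time therefore cannot be told apart in the comparisons with 0 h, and the later course was also fitted within the second day alone, over 11 arrays. Each slide held arrays of only 1 time-point. Slide and time therefore cannot be told apart in any comparison, including that of 0.5 h with 0 h and those within the second day. Of 14 Schwann cell markers all were well above background on the 0 h arrays, and the log2 of their summed level ran between 9.78 and 10.04 at 0 h and between 9.41 and 9.61 at 9 h. The summed level of 8 neutrophil markers went from -0.18 to 0.44 at 0 h up to 4.15 to 4.42 at 9 h. At 9 h 7 of the 8 were called higher, against 16.9% of all gene names. The summed level of 9 skeletal muscle markers spread from 6.33 to 10.3 within 0 h, highest on 0 h replicate 1, and from 0.74 to 8.46 within 6 h. None of the 9 was called over time, against 36.3% of all gene names.

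Levels are given as the log2 of the processed signal relative to the 75th percentile of the array, so that a level of 0 lies at that percentile and a difference of 1 is a doubling of signal. Levels of different probes are not comparable with each other. A gene was called where limma's unadjusted P-value was under 0.01 and its Benjamini-Hochberg adjusted P-value over all 32111 tested probes under 0.05, and errors of differences are the standard errors of that fit.

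Over the 6 time-points the limma F-test called 5 of the 10 genes, Pou3f1, Id1, Id2, Id3 and Olig1, against 36.3% of the 27270 gene names tested. At 0.5 h 2 of 10 were called, Id1 higher and Olig1 lower, against 6.59% of all names, and at 1 h it was again Id1 higher and Olig1 lower, against 6.08%. At 3 h Olig1 was the only one of the 10, against 14.7%. At 6 h 5 of 10 were called, with Sox2, Id1, Id3 and Id4 higher and Olig1 lower, against 26.4%. At 9 h 4 of 10 were called, with Sox2 and Id2 higher and Pou3f1 and Olig1 lower, against 32.7%. The shares over time and at 9 h lie close to those of all names, and with 10 genes the counts are read as descriptions. The median change of the 10 genes ran from 0.01 at 3 h to 0.31 at 6 h and was 0.20 at 9 h, within the middle 50% of all tested probes, whose range was -0.26 to 0.43 at 6 h. Without 0 h replicate 1 the count at 6 h was 3 and that at 3 h was 3, and without 3 h replicate 1 the count at 3 h was 2.

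**Figure D1:**
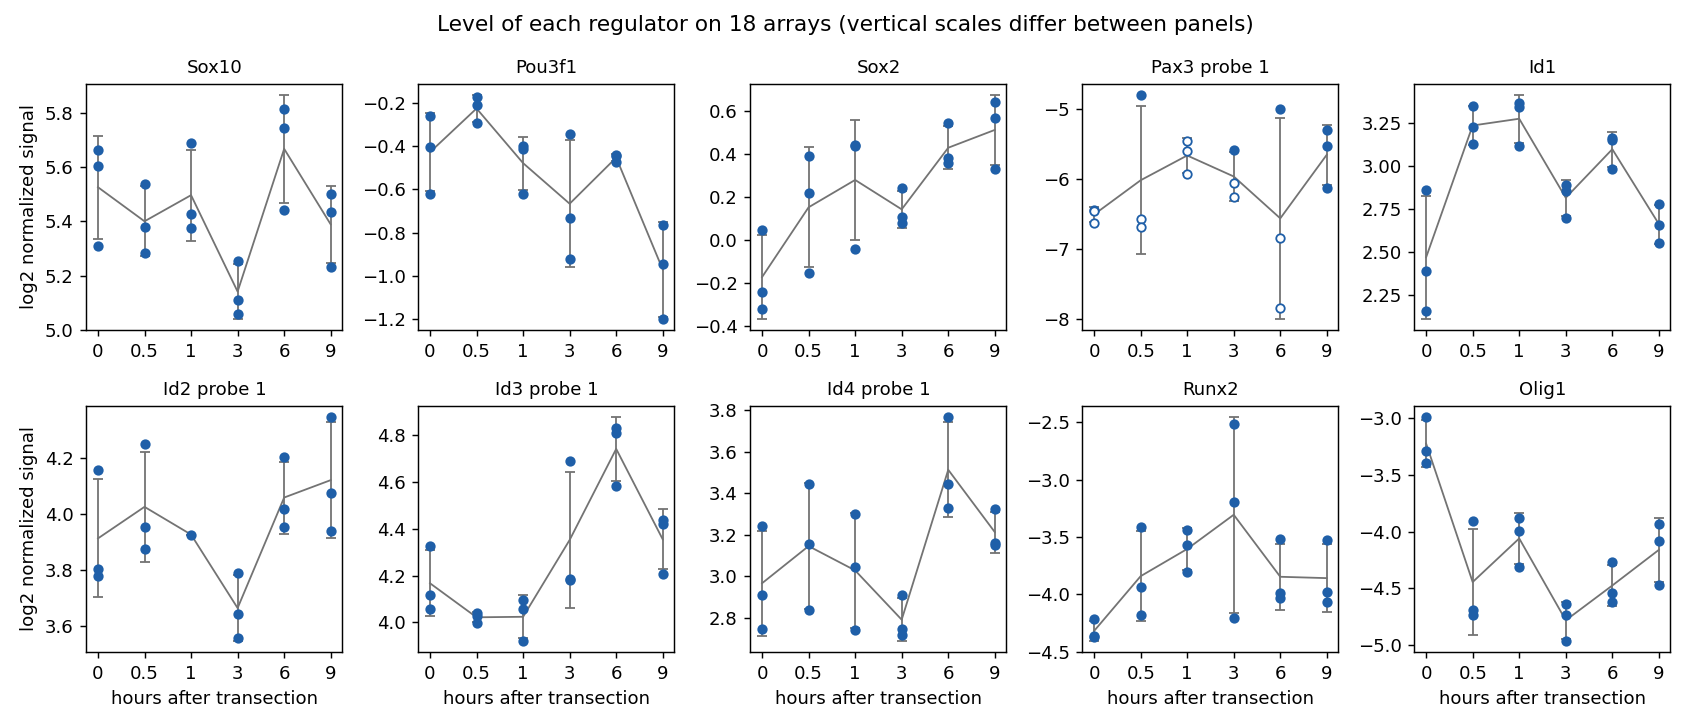
Level of the reported probe of each of the 10 genes on the 18 arrays, with hours after transection (equally spaced, not to scale) on the horizontal axis and log2 normalized signal on the vertical axis, whose range differs between panels. Points are arrays, open where not well above background, and lines join the means with bars of 1 SD, except Id2 at 1 h, where 1 array remains. The 3 arrays of 0 h lie above all others for Olig1 and below all arrays of 0.5 h, 1 h and 6 h for Id1.

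Within the second scan day the F-test over its 4 time-points called 2 of the 10, Id1 and Id3, against 20.4% of all names. Of the contrasts with 1 h in that fit, 3 h called 2 genes, Id1 and Olig1, both lower, against 7.58% of names. At 6 h it called Id3, higher, against 23.1%, and at 9 h Id1, lower, against 17.3%. The F-test count fell to 0 when any one of 1 h replicate 1, 3 h replicate 2, 6 h replicate 2, 9 h replicate 1 or 9 h replicate 2 was left out, and to 1 without 1 h replicate 2.

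Sox10, the lineage factor, was called at no time on its probe at rn4 chr7:117138840-117138899, minus strand. Its level was 5.31, 5.66 and 5.61 on the 0 h arrays, 5.28, 5.54 and 5.38 on those of 0.5 h, 5.69, 5.43 and 5.37 on those of 1 h, 5.25, 5.06 and 5.11 on those of 3 h, 5.75, 5.82 and 5.44 on those of 6 h, and 5.44, 5.50 and 5.23 on those of 9 h. The 3 arrays of 3 h lay below all 3 of 0 h, and at the other times the arrays overlapped those of 0 h. The change was -0.39 ± 0.13 at 3 h (adjusted P = 0.0706) and 0.14 ± 0.13 at 6 h (adjusted P = 0.454), and the F-test over time gave an adjusted P of 0.0632. Without 0 h replicate 1 the change at 3 h was -0.49 and was called (adjusted P = 0.0371), as it was with array weights and with a trended robust prior (adjusted P = 0.0337 and 0.0413). Quantile normalization and the deposited matrix gave a call over time instead, at adjusted P = 0.0115 and 0.0119. Under both the change at 6 h was 0.31 and was not called (adjusted P = 0.064 and 0.0565). With arrays shifted to the median it was -0.0001. In order of mean level 6 h came first and 3 h last, and every pair of neighbours in that order overlapped.

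Pou3f1, the POU factor that starts myelination with Sox10, was called lower at 9 h on its probe at rn4 chr5:143984235-143984294, plus strand. Its level was -0.62, -0.40 and -0.26 on the 0 h arrays, -0.17, -0.21 and -0.29 on those of 0.5 h, -0.41, -0.62 and -0.40 on those of 1 h, -0.35, -0.92 and -0.73 on those of 3 h, -0.47, -0.44 and -0.44 on those of 6 h, and -0.77, -0.95 and -1.20 on those of 9 h. The 9 h arrays were the only ones that all lay below those of 0 h, and the 3 h arrays were the most spread. The level at 9 h was 1.46-fold lower than at 0 h (change -0.54 ± 0.15, adjusted P = 0.0108), and the F-test over time gave an adjusted P of 0.0127. Without 9 h replicate 3, which alone was scanned on the third day, the change was -0.43 with an adjusted P of 0.0544, and without 0 h replicate 3 it was -0.46 with an adjusted P of 0.0492 and no call. The call over time was lost without 9 h replicate 2 (adjusted P = 0.0349) or 9 h replicate 3 (adjusted P = 0.0451). Normexp correction of the background and a fit of only the 6 arrays of the contrast also ended the call at 9 h (adjusted P = 0.0507 and 0.0501). Normexp and a shift of the arrays to the median ended the call over time (adjusted P = 0.0653 and 0.0451). Within the second day 9 h differed from 1 h by -0.38 ± 0.16 (adjusted P = 0.154). The genes whose level ran closest to Pou3f1 over the 18 arrays were Itpka (r = 0.88), a kinase of inositol phosphates, Pias3 (r = 0.86), an inhibitor of STAT3, and Tut4 (r = 0.84).

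Sox2, an HMG box factor that keeps Schwann cells from myelinating and drives their clustering in a nerve bridge, was called higher at 6 h and 9 h. The probe at rn4 chr2:120969725-120969784, plus strand, is shown because the gene rests on it alone.
Sox2: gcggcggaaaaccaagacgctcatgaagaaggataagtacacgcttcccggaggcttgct
Its level was -0.32, -0.24 and 0.05 on the 0 h arrays, 0.39, 0.22 and -0.16 on those of 0.5 h, 0.44, -0.04 and 0.44 on those of 1 h, 0.24, 0.11 and 0.08 on those of 3 h, 0.36, 0.38 and 0.54 on those of 6 h, and 0.64, 0.57 and 0.33 on those of 9 h. All arrays of 3 h, 6 h and 9 h lay above those of 0 h, while those of 0.5 h and 1 h overlapped them. The rise was 1.52-fold at 6 h (0.60 ± 0.16, adjusted P = 0.0138) and 1.61-fold at 9 h (0.68 ± 0.16, adjusted P = 0.0054). Over time the adjusted P was 0.0317, with an unadjusted P of 0.0112 that missed the limit. It passed when any one of 0 h replicate 3, 0.5 h replicate 1, 0.5 h replicate 3, 1 h replicate 2 or 9 h replicate 3 was left out. The call at 6 h was lost without 0 h replicate 1 (0.53, adjusted P = 0.0516), without 6 h replicate 3 (0.54, adjusted P = 0.0499) and with scan day as a random block (0.57, adjusted P = 0.0777), and both were lost with arrays shifted to the median (0.46 and 0.51, adjusted P = 0.109 and 0.0621). Without 1 h replicate 2 the change at 1 h was 0.61 and was called (adjusted P = 0.044). Within the second day 9 h differed from 1 h by 0.32 ± 0.16 (adjusted P = 0.197).

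Pax3, a paired box factor of the neural crest and of immature Schwann cells, was near the limit of the arrays. Of its 2 probes, probe 2 was well above background on 1 array and was not tested. Probe 1 was so on 6 arrays, namely 1 of 3 at 0.5 h, 3 h and 6 h, all 3 at 9 h and none at 0 h and 1 h, and is shown because it alone measured the gene (rn4 chr9:77574793-77574852, minus strand).
Pax3 probe 1: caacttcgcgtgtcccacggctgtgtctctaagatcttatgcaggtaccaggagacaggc
Its level at 9 h was -6.13, -5.53 and -5.30. With 0 h not well above background no fold is given, and the fit did not call 9 h (adjusted P = 0.273). The arrays of 1 h and 3 h also all lay above those of 0 h. The change at 9 h, set against those dim 0 h readings, was 0.85 ± 0.58 here. It was 0.31 with quantile normalization or the deposited matrix and 0.0011 with normexp. The F-test gave an adjusted P of 0.557, and quantile normalization gave a call over time (adjusted P = 0.0269). The probe was tested only because all 3 arrays of 9 h were well above background, so its values at 9 h are a description. Its mean was -5.65 at 9 h and -5.66 at 1 h, and its highest single readings were -4.80 at 0.5 h and -5.00 at 6 h.

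Runx2, a runt factor, was brightest at 3 h but with a wide spread. Its probe crosses an intron, since its 60 bases lie within a span of 1781 bases at rn4 chr9:12019146-12020926 on the plus strand.
Runx2: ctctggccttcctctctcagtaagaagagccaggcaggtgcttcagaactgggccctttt
The level was -4.37, -4.37 and -4.22 on the 0 h arrays, -3.94, -4.18 and -3.41 on those of 0.5 h, -3.44, -3.81 and -3.57 on those of 1 h, -4.21, -2.52 and -3.19 on those of 3 h, -3.52, -4.03 and -3.99 on those of 6 h, and -4.07, -3.98 and -3.52 on those of 9 h. Every array after injury lay above every array of 0 h, 3 h replicate 1 by the least. The change was 1.01 ± 0.33 at 3 h (adjusted P = 0.0558) and 0.46 to 0.71 at the other times, and neither these nor the F-test (adjusted P = 0.196) were called, although a fit of only the 6 arrays of the contrast called 1 h (0.71, adjusted P = 0.0251). Without 3 h replicate 1, the lowest array of that time, the change at 3 h was 1.46 with an adjusted P of 0.0029 and the F-test gave 0.0115, both of them calls, and without 3 h replicate 2, the highest, the change was 0.62 (adjusted P = 0.226). The change at 3 h also passed with array weights, with a trended robust prior and with probes dim on any array removed (adjusted P = 0.0462, 0.0455 and 0.0404). Of other genes of the runt family and its partners and targets, 6 of 11 tested were called over time, against 36.3% of all names. Runx1, the runt factor of blood cells, rose by 1.32 at 3 h and 1.95 at 6 h (adjusted P = 4.73e-07). Runx3 rose by 1.42 at 1 h and 1.33 at 9 h, and Mmp13, a collagenase that Runx2 drives in bone, by 2.27 at 6 h (adjusted P = 2.92e-05). Spp1 and Bglap, further targets in bone, were not called at any time. The summed level of the neutrophil markers was above 0 h at every later time (medians of 2.04 at 1 h and 3.86 at 3 h against 0.15 at 0 h), and their part in these values was not tested.

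Olig1, a basic helix-loop-helix factor, was the one member lower at every time after the cut, except with normexp correction at 1 h and 3 h. Its probe lies at rn4 chr11:31246213-31246272, plus strand. Its level was -3.39, -2.99 and -3.29 on the 0 h arrays, -4.74, -4.69 and -3.91 on those of 0.5 h, -3.99, -3.88 and -4.31 on those of 1 h, -4.74, -4.96 and -4.64 on those of 3 h, -4.54, -4.62 and -4.27 on those of 6 h, and -4.47, -3.93 and -4.08 on those of 9 h. All 15 arrays after injury lay below all 3 of 0 h. The fall was 2.33-fold at 0.5 h (-1.22 ± 0.22, adjusted P = 0.00636), a comparison made within 1 scan day, and a fit of those 6 arrays alone did not call it (adjusted P = 0.0651). It was 1.79-fold at 1 h (-0.84, adjusted P = 0.0385), 2.95-fold at 3 h (-1.56, adjusted P = 0.000344), 2.38-fold at 6 h (-1.25, adjusted P = 0.000926) and 1.92-fold at 9 h (-0.94, adjusted P = 0.00462), and the F-test gave an adjusted P of 0.00101. Within the second day 3 h lay below 1 h by -0.72 ± 0.18 (adjusted P = 0.0468), a call that was lost when any one of 8 arrays was left out, with other scalings (adjusted P = 0.0797 to 0.299), and with normexp, which gave 0.08. The genes whose level ran closest to Olig1 were Hs1bp3 (r = 0.91), Pafah1b3 (r = 0.90) and Snap47 (r = 0.89).

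The signal of Olig1 was dim, with a processed signal of 41.7 to 164.5 against array medians of 145.7 to 263.6, and the result changed with normexp, which starts from other signal columns and adds an offset. With normexp correction of the mean signals no change was called, and the values against 0 h were -0.70 for 0.5 h, then 0.09 for 1 h and 0.17 for 3 h, followed by -0.86 for 6 h and -0.71 for 9 h. Normexp moved the median of all probes by 0.31 at 1 h and 0.44 at 3 h, and relative to those medians Olig1 was at -0.23 and -0.28. Normexp called 11.7% of all names over time. Under a shift to the median, quantile normalization and the deposited matrix the change lay between -1.32 and -1.38 for 0.5 h and between -1.59 and -1.65 for 3 h, with a call at both. The call at 1 h was lost with quantile normalization (adjusted P = 0.0947), in the matrix the authors deposited (0.0991), when dim probes were kept (0.0563), with scan day as a random block (0.195), and without any one of 7 arrays (0 h replicates 1, 2 and 3, 1 h replicates 1 and 3, 3 h replicate 1 and 6 h replicate 2), at adjusted P up to 0.138.

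**Figure D2:**
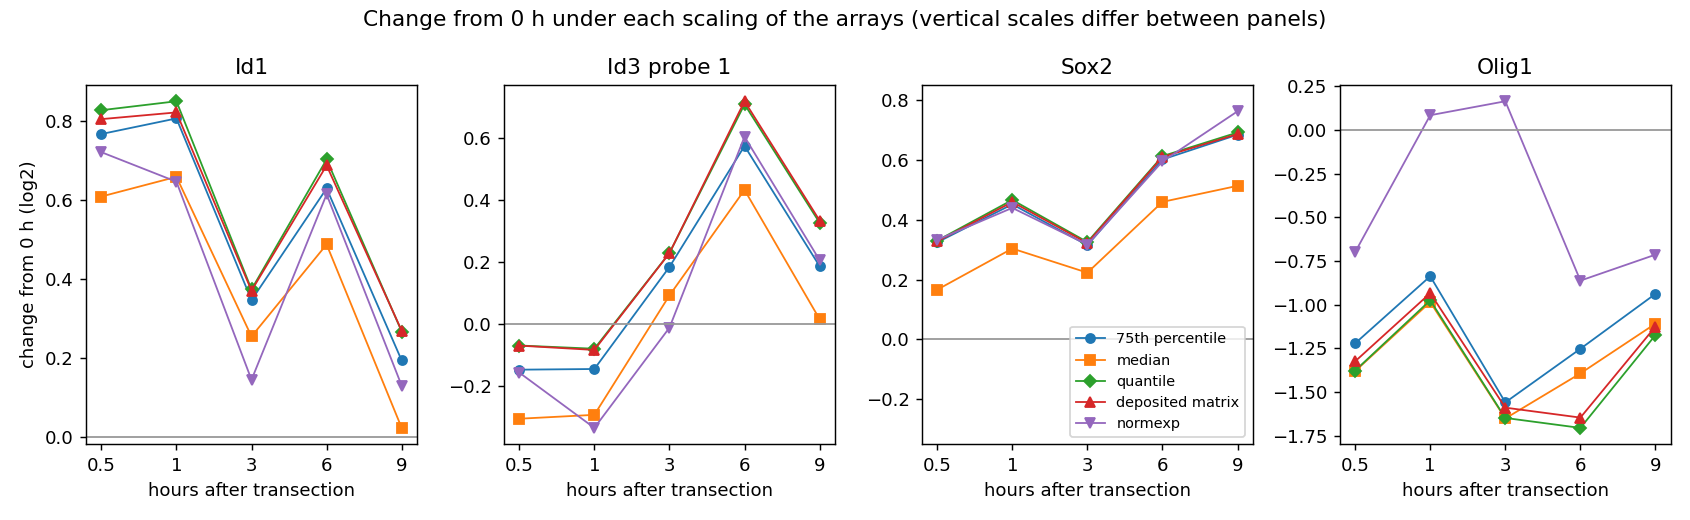
Change from 0 h (log2, vertical, with a range of its own in each panel) at 5 times after transection (equally spaced, not to scale) for Id1, Id3 probe 1, Sox2 and Olig1, each line being 1 scaling of the arrays. For Id1, Id3 and Sox2 all 5 scalings are positive at 6 h, with the shift to the median lowest, whereas for Olig1 normexp gives 0.09 and 0.17 at 1 h and 3 h where the others give -0.84 to -0.98 and -1.56 to -1.65.

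The 4 Id genes, which code for inhibitors of DNA binding and answer to BMP, serum and early growth signals in many cells, were called at different times. Id1 was called higher at 0.5 h, 1 h and 6 h and Id3 at 6 h. Id2 was called at 9 h by 2 of its 3 probes, and Id4 at 6 h by 1 of its 2 probes. The other Id4 probe had its highest mean at 0.5 h, without a call. On their brightest probes Id2 and Id4 correlated with r of 0.79 over the arrays, and Id3 and Id4 with 0.56. The other pairs of Id genes had r of -0.05 to 0.26. The order of the calls is a description, since the differences between the genes were not tested.

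Id1 was the only Id gene called at 0.5 h or 1 h. Its probe lies at rn4 chr3:143087157-143087216, plus strand. Its level was 2.86, 2.16 and 2.39 on the 0 h arrays, 3.35, 3.13 and 3.23 on those of 0.5 h, 3.37, 3.34 and 3.12 on those of 1 h, 2.70, 2.86 and 2.89 on those of 3 h, 3.15, 3.16 and 2.98 on those of 6 h, and 2.78, 2.55 and 2.66 on those of 9 h. The arrays of 0.5 h, 1 h and 6 h all lay above those of 0 h, whereas those of 3 h and 9 h overlapped 0 h replicate 1. The rise was 1.70-fold at 0.5 h (0.77 ± 0.15, adjusted P = 0.0104), within 1 scan day, 1.75-fold at 1 h (0.81 ± 0.15, adjusted P = 0.00645) and 1.55-fold at 6 h (0.63 ± 0.15, adjusted P = 0.00662). Changes of 0.35 at 3 h (adjusted P = 0.136) and 0.19 at 9 h (adjusted P = 0.325) were not called, but without 0 h replicate 1, the array with the highest skeletal muscle markers, they were 0.54 and 0.39 and were called (adjusted P = 0.0119 and 0.0267). Without 0 h replicate 2 they were 0.19 and 0.04 (adjusted P = 0.448 and 0.868). The part of those markers was not tested. Within the second day Id1 lay lower at 3 h than at 1 h (-0.46 ± 0.11, adjusted P = 0.0451) and lower at 9 h (-0.61 ± 0.13, adjusted P = 0.0139). The first of these was lost when any one of 10 arrays was left out, with arrays set to their median (adjusted P = 0.138), with dim probes kept (0.0817), with the replicate number as a block (0.0698) and with normexp (0.788), and the second without 9 h replicate 1 (-0.72, adjusted P = 0.0645) or 9 h replicate 2 (-0.50, adjusted P = 0.114), with arrays set to their median (0.0527) and with normexp (0.477). Normexp gave 0.72, 0.65 and 0.61 at 0.5 h, 1 h and 6 h and ended the calls (adjusted P = 0.184, 0.192 and 0.0753), with 1 h at 0.34 relative to the median of all probes. A fit of only the 6 arrays of each contrast ended them too (adjusted P = 0.099, 0.0577 and 0.072), scan day as a random block ended that at 1 h (adjusted P = 0.0566) and arrays set to their median ended that at 6 h (0.49, adjusted P = 0.0425).

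The genes whose level over the 18 arrays ran closest to that of Id1, among 14208 probes with a listed symbol, were Ier2 (r = 0.86), an immediate early gene, Ptgs2 (r = 0.82), which codes for cyclooxygenase 2, and Rasd1 (r = 0.82). These correlations describe arrays that share time-points and scan days. All 10 genes of a list of immediate early genes were called higher at 0.5 h, 1 h and 3 h, against 4.69%, 3.88% and 7.7% of all names, and the log2 of their summed level lay between 5.78 and 6.20 at 0 h, between 7.84 and 8.15 over 0.5 h and 1 h, between 6.91 and 7.07 at 3 h, and between 6.19 and 6.65 over 6 h and 9 h.

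Id3 was read alike by 3 probes, whose levels correlated with r of 0.97 to 0.99 over the arrays. Probes 2 and 3 cross an intron (60 bases within spans of 175 bases, rn4 chr5:154934456-154934630 and chr5:154934473-154934647, plus strand) and are shown because they share 43 bases, given in capitals, and so are not independent readings.
Id3 probe 2: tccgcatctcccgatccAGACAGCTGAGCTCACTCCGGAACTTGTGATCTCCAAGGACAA
Id3 probe 3: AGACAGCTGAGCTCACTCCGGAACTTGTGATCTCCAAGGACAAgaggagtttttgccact
Probe 1 lies at chr5:154935337-154935396. Its level was 4.12, 4.06 and 4.33 on the 0 h arrays, 4.03, 4.04 and 4.0 on those of 0.5 h, 4.09, 4.06 and 3.92 on those of 1 h, 4.18, 4.19 and 4.69 on those of 3 h, 4.83, 4.81 and 4.58 on those of 6 h, and 4.42, 4.21 and 4.44 on those of 9 h. All 6 h arrays lay above all 0 h arrays on each of the 3 probes, and no other time did so on any of them. The rise at 6 h was 1.49-fold on probe 1 (0.58 ± 0.13, adjusted P = 0.00584), 1.51-fold on probe 2 (0.59 ± 0.13, adjusted P = 0.00538) and 1.48-fold on probe 3 (0.57 ± 0.12, adjusted P = 0.00339). Within the second scan day 6 h exceeded 1 h by 0.72 ± 0.15 on probe 1 (adjusted P = 0.0119), 0.66 on probe 2 and 0.65 on probe 3, also called, where probe 1 at 1 h lay 0.14 below 0 h. Leaving out any 1 array ended none of these calls, and normexp ended all of them with values of 0.57 to 0.61 against 0 h (adjusted P = 0.0849 to 0.132). The genes with the closest course were Eif4g2 (r = 0.93), a translation initiation factor, Sertad1 (r = 0.91) and Thumpd1 (r = 0.91).

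Id2 was called on 2 of its 3 probes, and the differences between the probes were not tested. Their levels correlated with r of 0.76 to 0.95 over the arrays. Probe 1 lies at rn4 chr6:42781039-42781098 on the minus strand, nearest the 3′ end of the gene. Probe 2, which crosses an intron, lies at chr6:42782548-42782897 and probe 3 at chr6:42783112-42783171, both upstream of probe 1 on that strand, and they are shown because the call rests on them.
Id2 probe 2: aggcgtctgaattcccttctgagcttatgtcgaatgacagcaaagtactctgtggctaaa
Id2 probe 3: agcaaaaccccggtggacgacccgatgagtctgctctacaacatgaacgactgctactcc
On probe 1 the level was 3.78, 3.80 and 4.16 on the 0 h arrays and 3.94, 4.08 and 4.35 on those of 9 h, with 1 array left at 1 h because the spots of replicates 1 and 2 were marked as outliers and were dropped from the fit. On probe 2 it was 0.92, 0.92 and 1.08 on the 0 h arrays, 1.11, 1.30 and 0.96 on those of 0.5 h, 1.02, 1.24 and 1.36 on those of 1 h, 0.68, 0.72 and 0.98 on those of 3 h, 1.1, 1.18 and 1.36 on those of 6 h, and 1.29, 1.33 and 1.60 on those of 9 h. On probe 3 it was -0.77, -0.77 and -0.55 on the 0 h arrays, -0.58, -0.48 and -0.75 on those of 0.5 h, -0.51, -0.38 and -0.25 on those of 1 h, -0.91, -0.84 and -0.57 on those of 3 h, -0.39, -0.36 and -0.27 on those of 6 h, and -0.32, -0.31 and 0.10 on those of 9 h. The 6 h and 9 h arrays lay above all 0 h arrays on probes 2 and 3, as did those of 1 h on probe 3, and overlapped them on probe 1. At 9 h the change was 0.44 ± 0.13 on probe 2 (adjusted P = 0.0179) and 0.52 ± 0.13 on probe 3 (adjusted P = 0.00786), and 0.21 ± 0.15 on probe 1 (adjusted P = 0.287). The call on probe 2 at 9 h was lost without 0 h replicate 1 (adjusted P = 0.0498), 0 h replicate 2 (adjusted P = 0.0575) or 9 h replicate 3 (adjusted P = 0.0831), and over time without 3 h replicate 1, 3 h replicate 2 or 9 h replicate 3. With scan day as a random block the call on probe 2 at 9 h was lost too (0.45, adjusted P = 0.0515). That on probe 3 was kept without any 1 array, and both were lost at 9 h under a shift to the median (0.27 and 0.35, adjusted P = 0.169 and 0.0582), with normexp (adjusted P = 0.135 and 0.108) and in the fit of only 6 arrays (0.0458 and 0.0514). The genes closest to probe 1 over the 16 arrays that measured it were Has2 (r = 0.92), a hyaluronan synthase, Prpf4b (r = 0.86) and Lap3 (r = 0.82).

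Id4 was read by 2 probes that correlated with r of 0.56, probe 1 at rn4 chr17:22525981-22526040 and probe 2 at chr17:22525459-22525518, minus strand. On probe 1 the level was 2.75, 2.91 and 3.24 on the 0 h arrays, 3.15, 3.45 and 2.84 on those of 0.5 h, 3.04, 3.30 and 2.74 on those of 1 h, 2.72, 2.75 and 2.91 on those of 3 h, 3.44, 3.77 and 3.33 on those of 6 h, and 3.15, 3.16 and 3.33 on those of 9 h. On probe 2 it was 1.36, 1.11 and 1.64 on the 0 h arrays, 1.79, 2.14 and 1.76 on those of 0.5 h, 1.87, 2.04 and 1.66 on those of 1 h, 1.46, 1.59 and 1.58 on those of 3 h, 1.73, 1.98 and 1.64 on those of 6 h, and 1.44, 1.61 and 1.51 on those of 9 h. Probe 2 had all arrays of 0.5 h, 1 h and 6 h above those of 0 h, although the lowest of 6 h and the highest of 0 h both read 1.64, whereas probe 1 had only those of 6 h. The change on probe 1 at 6 h was 0.55 ± 0.18 (adjusted P = 0.0378), a call that ended when any one of 12 of the 18 arrays was left out, at adjusted P up to 0.141. Probe 1 also lost the call with scan day as a random block (adjusted P = 0.116) and under a shift to the median (0.40, adjusted P = 0.173). On probe 2 the changes were 0.53 ± 0.15 at 0.5 h (adjusted P = 0.0515), 0.49 at 1 h (adjusted P = 0.071) and 0.41 at 6 h (adjusted P = 0.0516), and none was called. Without 0 h replicate 3 these were 0.66, 0.62 and 0.55 and all 3 were called (adjusted P = 0.0336, 0.0448 and 0.0204), and without 1 h replicate 3 the change at 0.5 h was also called (adjusted P = 0.0404). Quantile normalization, the deposited matrix, array weights and a trended robust prior each called the same 3 changes on probe 2, at adjusted P of 0.0338, 0.0456 and 0.0253 with the first.

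**Figure D3:**
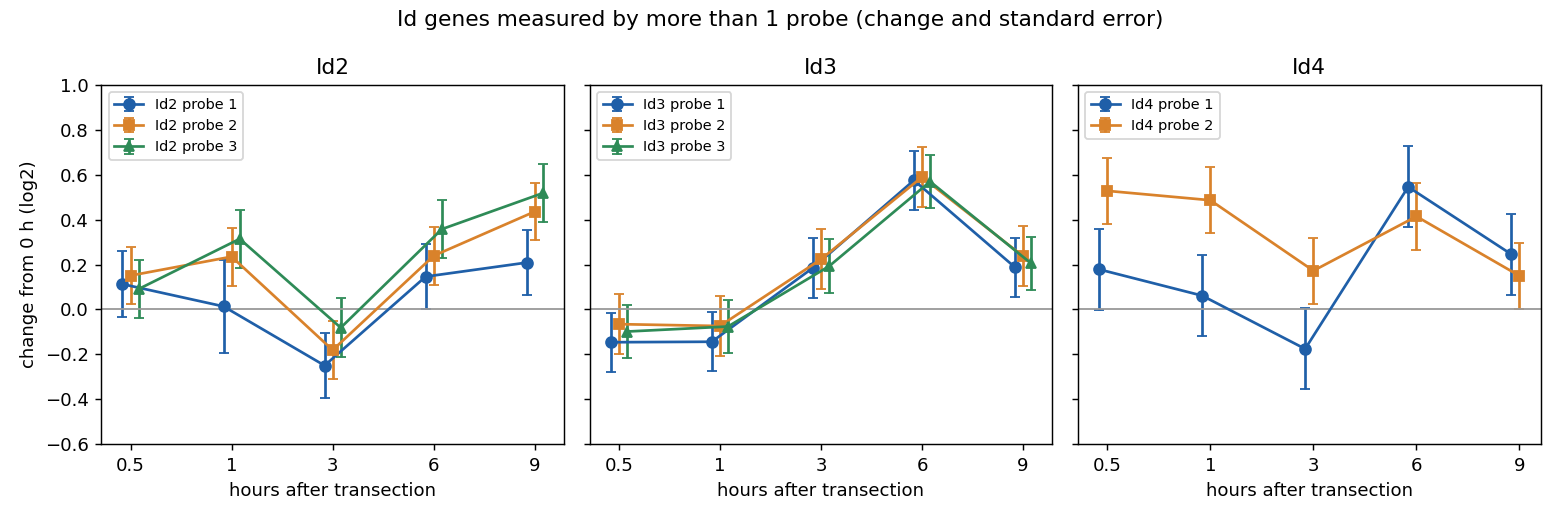
Change from 0 h (log2, vertical) with bars of 1 standard error at 5 times after transection (equally spaced, not to scale) for each tested probe of Id2, Id3 and Id4. The 3 probes of Id3 coincide at 0.57 to 0.59 at 6 h, those of Id2 part at 9 h between 0.21 and 0.52, and those of Id4 part at 0.5 h between 0.18 and 0.53.

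The promoters of Id1, Id2 and Id3 are shown because these 3 were called over time and are in the promoter table. They are RefSeq sequences on GRCr8 for the bases 250 to 51 before the annotated start, 5′ to 3′ on the gene's strand, and 7 of the 10 members were in it. Capitals mark the TATA box TATAAA, the CCAAT box, and the GC box GGGCGG on either strand.
Id1, chr3:161671314-161671513, plus strand: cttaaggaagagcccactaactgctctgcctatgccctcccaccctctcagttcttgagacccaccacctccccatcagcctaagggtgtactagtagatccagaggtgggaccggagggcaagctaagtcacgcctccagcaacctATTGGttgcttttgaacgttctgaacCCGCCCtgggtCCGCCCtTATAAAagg
Id2, chr6:47471046-47471245, minus strand: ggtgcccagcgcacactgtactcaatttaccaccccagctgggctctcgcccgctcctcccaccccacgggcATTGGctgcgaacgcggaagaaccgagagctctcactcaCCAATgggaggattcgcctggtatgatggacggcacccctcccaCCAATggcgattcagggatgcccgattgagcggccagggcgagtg
Id3, chr5:153656041-153656240, plus strand: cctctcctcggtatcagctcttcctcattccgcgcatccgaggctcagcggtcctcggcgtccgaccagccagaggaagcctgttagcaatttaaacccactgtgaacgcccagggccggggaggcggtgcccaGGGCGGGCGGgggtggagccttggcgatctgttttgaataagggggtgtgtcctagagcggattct
Id1 held 1 TATAAA, 59 bases before the start, a sequence found in 9.98% of the 33469 promoter windows of that table. CCAAT occurred 1 time in Id1 and 3 times in Id2, and in 28.8% of all windows. GGGCGG occurred 2 times in Id1 and 2 times, overlapping, in Id3, and in 24.2% of windows. The E-box CANNTG, to which the partners of Id proteins bind, occurred 1 time in Id2 and in 57.9% of windows, and both TGACG (13.5% of windows), the core of the cAMP response element, and GGCGCC (6.56%), a core of BMP response elements, were in none of these 3 windows. Such matches describe the letters in these windows and nothing more.

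**Figure D4:**
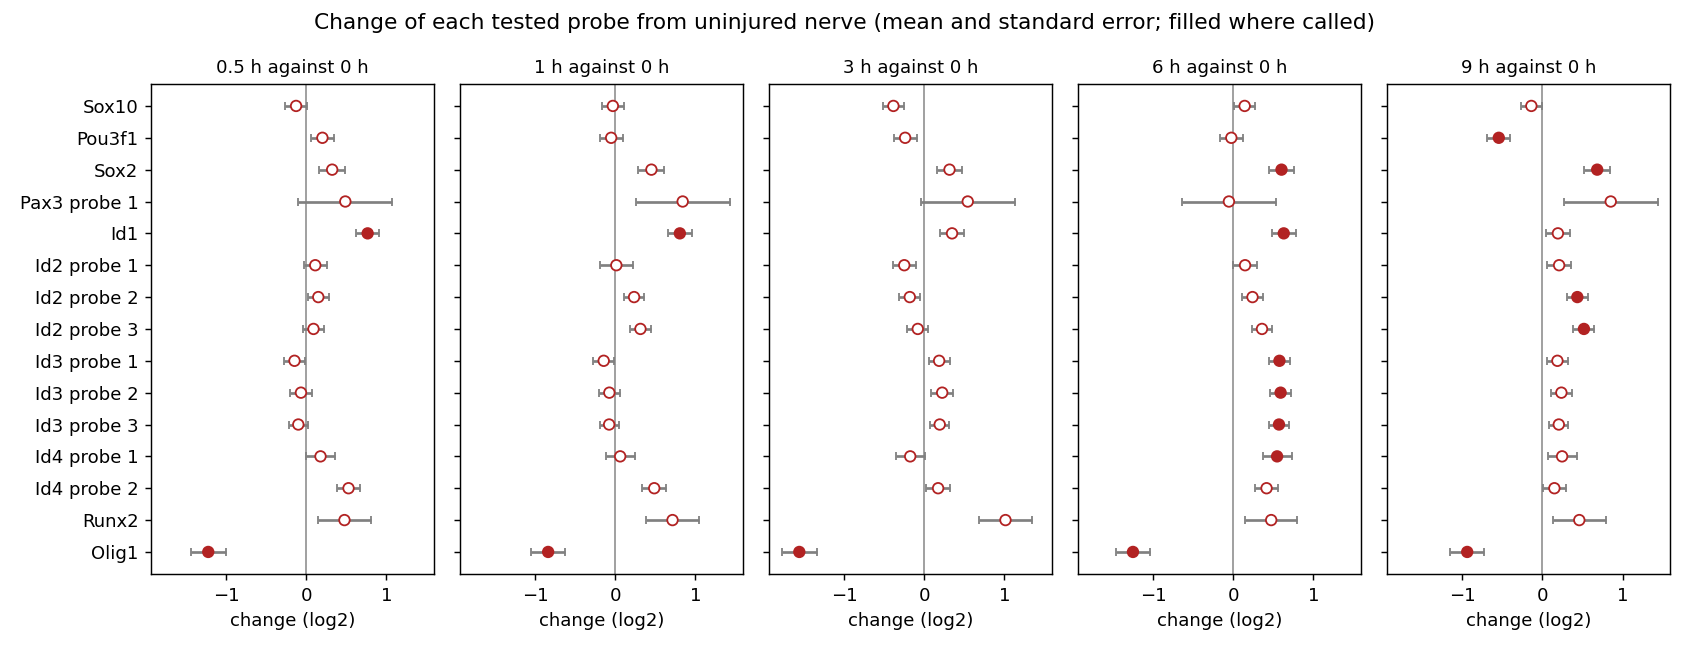
Change from 0 h (log2, horizontal) of each of the 15 tested probes, in 1 panel for each time-point, with bars of 1 standard error and filled points where called. Olig1 is filled on the left in all 5 panels, the 3 Id3 probes are filled on the right at 6 h, and Sox2 is filled at 6 h and 9 h.

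Of a list of partners of Id proteins and Olig1 and other basic helix-loop-helix factors, 7 of 16 tested were called over time, against 36.3% of all names. Tcf4, an E protein partner of both, fell by 0.86 at 6 h and by 0.99 at 9 h (adjusted P = 6.58e-05), and Tcf3, another, fell by 0.62 at 3 h and by 0.45 at 6 h. Tcf12 was not called. Of the relatives, Myc rose by 1.28 at 0.5 h and 2.16 at 3 h and was still 1.95 above 0 h at 9 h (adjusted P = 5.31e-05), and Mxd1, its antagonist, rose by 1.26 at 3 h. Of the BMP and TGF-beta pathway, which drives Id genes in other tissues, 19 of 32 tested were called over time, against 36.3% of all names. At 9 h 8 were higher and 6 lower, against 32.7% of names called, and the median change was -0.04. Among the ligands Inhba rose by 1.41 at 3 h and 1.59 at 9 h (adjusted P = 0.000857), Bmp4 fell by 0.75 at 3 h, and Gdf10 fell by 1.09 at 9 h. Of the antagonists Chrd fell by 1.16 at 9 h and Nog rose by 1.24, and the transducer Smad5 rose by 0.58 at 6 h while Smad1 was not called.

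Among 15 other regulators of myelination, all tested, 7 were called over time, against 36.3% of all names. Egr2, the zinc finger factor that Sox10 and Pou3f1 switch on, rose by 1.23 at 0.5 h, 1.43 at 1 h and 1.08 at 3 h (adjusted P = 0.000332 at 1 h) and was not called at 6 h (0.27) or 9 h (0.42). Zeb2, which represses inhibitors of myelination, fell by 0.52 at 6 h and at 9 h, and Nfatc4 fell by 0.82 at 3 h. Srebf1, a factor of lipid synthesis, rose by 0.65 at 0.5 h and fell by 0.41 at 6 h. Hdac1 and Hdac2, which act with Sox10, changed by at most 0.21 in size and were not called.

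Of 22 tested regulators of the immature or repair state, 12 were called over time, against 36.3% of all names. Jun, the central factor of repair Schwann cells, rose by 1.93 at 0.5 h and 1.89 at 1 h and was not called from 3 h on (0.33, 0.22 and -0.07). Atf3 rose by 1.93 at 0.5 h and by 0.50 at 9 h, and Stat3, which sustains repair cells, rose by 1.07 at 3 h and 1.45 at 9 h (adjusted P = 2.23e-06). The genes of this list called lower at any time were Etv1 (-0.64 at 9 h), Etv5 (-0.62 at 3 h), Gli1 (-0.64 at 3 h) and Sox5 (-0.59 at 6 h). Of the Notch pathway, Notch1 was higher at 0.5 h (1.06, adjusted P = 0.0166) and Rbpj, its partner on DNA, at 9 h (0.58, adjusted P = 0.00733). Of its targets Hey2 was called over time by 1 of its 2 probes, and Hes1, Hes5 and Hey1 were not called.

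Of 13 tested genes of myelin that Sox10 or Pou3f1 act on, 5 were called over time, against 36.3% of all names. None was called at 0.5 h, 1 h or 3 h, against 6.59%, 6.08% and 14.7% of names. At 6 h 3 were lower and none higher, against 13.4% of all names lower, and at 9 h 5 were lower and none higher, against 15.9%. At 9 h their median change was -0.38. At that time Mag, the myelin-associated glycoprotein, fell by 0.90 (adjusted P = 0.0023), Pmp22, a protein of compact myelin, by 0.60 and Mal by 0.53. In the same time Pou3f1 changed by -0.54 and Sox10 by -0.14, though Sox10 was at 0.04 with quantile normalization or the deposited matrix. The summed level of 10 endothelial markers also went from between 5.86 and 5.96 at 0 h to between 5.43 and 5.49 at 9 h (3 called lower), that of 9 fibroblast markers from between 10.36 and 10.45 to between 9.84 and 9.92 (5 called lower), while that of the neutrophil markers rose, and their part in these values was not tested.

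Of 14 tested genes of repair and immature Schwann cells, 7 were called over time, against 36.3% of all names. The counts at 0.5 h, 1 h, 3 h and 6 h were 1, 3, 4 and 7, against 6.59%, 6.08%, 14.7% and 26.4% of names. At 9 h 10 were called, 7 of them higher and 3 lower, against 16.9% of all names higher and 15.9% lower. Gfap rose by 3.55 (adjusted P = 4.03e-08) and Ngfr, the low affinity neurotrophin receptor, by 0.97, whereas L1cam (-0.67), Cdh2 (-0.63) and Ncam1 (-0.85), adhesion molecules of the immature cell, were lower. Gap43 changed by -0.63 at 9 h and was not called. These lists were chosen with earlier results of the data known and their counts are descriptions.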

How the data were processed

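Proximal sciatic nerve RNA was measured on 18 one-colour Agilent arrays, 3 for each of 6 time-points, grouped by the sample titles. The authors deposited scanner output, whose processed signal is a linear intensity with background subtracted and trends removed, with mean and background intensities, spot flags and probe positions on rn4. A deposited matrix holds log2 values with the same distribution on all arrays. Here control and outlier spots were left out, the 75th percentile of each array was subtracted from the log2 of its processed signal, and spots of 1 probe were averaged. Of 41012 probes, 32111 were well above background on all 3 arrays of a time-point and were tested with limma 3.58.1 in R 4.3.3, all times in 1 model, and again within the second scan day. A gene with several probes was reported by its brightest tested probe, with the others beside it, and counted as called if any was. Members were matched by name or accession. Nearest genes were the 3 of highest Pearson r for members called over time. On simulated data for 6 h against 0 h, over 31912 probes with 200 changed, 58% of 2-fold and 86% of 4-fold changes and 7 unchanged probes were called. In the data 26.4% of names were called at 6 h, so the adjusted limit there was less strict than in the simulation. The simulated spread was also drawn for each array apart, without slide or day. These shares therefore do not describe the 6 h comparison of the data. Alternatives were normexp (offset 50), other scalings, filters, blocks, weights, priors, limits, a mean over probes and leaving out each array. The members, lists and tests were chosen with earlier results of these data known. The number of arrays limits precision. Figures used Python 3.11.15 and matplotlib 3.10.9. Some genes of the lists are not reported here by name.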

Additional observations from a re-analysis of the deposited data

How the results depend on the processing

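The counts of member genes called moved as follows. Over time the count of 5 became 3 with normexp, with a shift to the median and under a stricter adjusted P limit, and 8 with quantile normalization. At 0.5 h the count of 2 became 0 with normexp and in the fit of only 6 arrays, and 1 under the stricter limit. At 1 h it went from 2 to 0 with normexp or scan day as a random block, and to 1 when dim probes were kept or the limit was stricter, and was 3 with array weights or the robust prior, which added Id4, and in the fit of only 6 arrays, which lost Id1 and added Runx2 and Pax3, the latter dim on all 6 arrays. Id4 was gained at 0.5 h under 7 settings. At 3 h it went from 1 to 0 with normexp, 2 with only probes above background on all arrays, and 3 with array weights or a trended robust prior. At 6 h it went from 5 to 1 with normexp, 2 with the median, and 3 with scan day as a random block, the stricter limit or only 6 arrays. At 9 h the 4 became 1 with normexp and 2 with the median, and 3 under the stricter limit, which lost Pou3f1, and in the fit of only 6 arrays, which lost Pou3f1 and Id2 and added Pax3, a gene tested only because its 9 h arrays were above background. Within the second day the 2 became 0 with normexp or the stricter limit, 1 with the median or no filter, 4 with only probes above background on all arrays, 5 with array weights or the robust prior, and 6 with quantile normalization, the deposited matrix or slide as a random block. Normexp brought the 103 non-member genes called over the fixed lists to 54. Leaving out 1 array gave 4 to 7 over time, 2 to 3 at 0.5 h, 1 to 3 at 1 h, 1 to 3 at 3 h, 3 to 5 at 6 h, 3 to 5 at 9 h and 0 to 3 within the second day. The 1 h count fell to 1 without any one of 0 h replicates 1 and 2, 1 h replicates 1 and 3, 3 h replicate 1 and 6 h replicate 2. Olig1 turned positive with normexp, to 0.0852 at 1 h, 0.165 at 3 h, and 0.0799 for 3 h against 1 h (adjusted P = 0.921, 0.823 and 0.995). The cause was not tested. Over all single values and alternatives 1512 kept their direction and side of the limit, 125 lost a call, 78 gained one and 3 reversed.

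Replicate numbers 1 to 3 recur at each time-point, but the deviations of same-numbered arrays correlated with r of -0.305 to 0.459 over 45 pairs (median 0.104, 23 above 0.1), against a median of -0.0329 over 90 pairs of different number (24 above 0.1). Since not every same-numbered pair was above 0.1, the numbers were not taken to pair the arrays. That rule is strict and does not show that the arrays were unpaired. With the replicate number as a block the counts were 5 over time, 2 each at 0.5 h and 1 h, 1 at 3 h, 6 at 6 h, 4 by 9 h and 2 within the second day, where 3 h against 1 h lost Id1 and Olig1 (adjusted P = 0.0698 and 0.0838) and gained Id2 (0.0353).

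Of the 10 genes, Pax3 lay at the limit of detection and Olig1 and Runx2 were dim. Normexp here also started from the mean instead of the processed signal and added an offset, so no value isolates the background correction. With 3 arrays a time-point, a missed call does not show that a gene was unchanged.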
